A study of Homo sapiens with 3 samples.

Results

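CK2α regions with no RNA polymerase II (Pol II) region within 10 kb were examined in LNCaP, a prostate carcinoma cell line of human origin that responds to androgen. A CK2α region was counted as far from Pol II when its centre had no Pol II region centre within 10 kb on the same chromosome, neither in cells given vehicle nor in cells given a CK2 inhibitor. Of 13382 CK2α regions 1578 met this rule, which is 11.8% (exact 95% binomial interval 11.3 to 12.4%). The members were thus chosen by the measured positions of the CK2α and Pol II regions, so their number and their distance from Pol II are descriptions.

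Serum stripped of hormones was used for 3 days in all cultures before dihydrotestosterone (DHT), a potent natural androgen, was added at 100 nM. CK2α was mapped in cells given DHT by ChIP-seq, in which DNA crosslinked to a protein is pulled down with an antibody and sequenced. The same assay with an antibody against Pol II was done in cells given DMSO and DHT and in cells given 25 μM TBBz and DHT, both for 2.5 hours in total and with DHT added for the final 1.5 hours. TBBz is a small-molecule inhibitor of CK2, and the CK2α library came from cells without it. For CK2α the labels give the DHT time both as 2.5 hours and as 90 min. The groups had 1 library each, so the spread between replicates is unknown, no test between groups was made, and all intervals cover counting error only. The lists hold 59983 regions in all, and positions are in hg19.

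CK2 is a protein kinase built from catalytic (CK2α or CK2α′) and regulatory (CK2β) subunits. It is active in most cells without a specific stimulus and phosphorylates many nuclear proteins, among them factors of transcription by Pol I, Pol II and Pol III. A ChIP signal for a kinase marks DNA to which it is crosslinked, mostly through other proteins. In prostate cells many binding sites of the androgen receptor lie at enhancers far from gene starts, so a chromatin protein without a nearby Pol II region is not unusual in itself. Genes and base sequences at these regions were not analysed here, because the reference tables at hand are of another genome build than the lists.

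The strength of each region was read from the order of the list. The CK2α list was cut into 132 runs, a new run starting wherever the order by chromosome and position falls back. Each run was taken to hold the regions tied for the same number of sequenced tags. The largest run, with 1415 regions, was taken to be the caller's threshold of 12 tags. Each earlier run was taken to hold 1 tag more, and each later run 1 tag fewer. The tags of all CK2α regions then sum to 310943, which is 99.0% of the 313973 that the file header gives. In the Pol II lists the same reading gave 99.8% of the header's sum with DMSO and 99.99% with TBBz. A reading 1 tag higher would exceed the header's sum in all 3 lists, at 103% for CK2α, while a reading 1 tag lower would give 94.8% for CK2α and is also possible by this sum. Levels above 60 tags are lower bounds for CK2α, as are those above 130 for DMSO and 301 for TBBz, since some tag numbers can be missing among the few strongest regions. Tag level below means this inferred number of tags in a region.

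Most of the far CK2α regions were weak. Their median tag level was 13 (quartiles 12 and 15), against 19 (quartiles 14 and 28) for the 11804 CK2α regions with Pol II within 10 kb. A level of 12 tags or fewer was found in 741 far regions, 47.0% of them (44.5 to 49.5%), and in 12.6% of the regions near Pol II (11.98 to 13.2%). By the inferred tag levels, 282 far regions (17.9%, 16.01 to 19.9%) and 528 regions near Pol II (4.47%, 4.11 to 4.86%) fell below the caller's threshold. The lowest inferred levels were 9 tags for CK2α, 8 for DMSO and 10 for TBBz, against thresholds of 12, 11 and 13. Why listed regions come out below the threshold was not tested, and the anchor at the largest run remains an assumption. The far regions held 7.66% of all tags in CK2α regions, although they made up 11.8% of the regions.

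The share of CK2α regions that were far from Pol II fell with the tag level and then stayed low. At 12 tags 459 of 1415 regions were far, a share of 32.4%. It was 22.8% (20.4 to 25.3%) at 13 tags, 13.4% (11.1 to 15.9%) at 15 tags and 8.50% at 17 tags. In each class from 21 tags upward it was at most 2.39%. Among regions with 30 tags or more 55 of 2613 were far, which is 2.10% (1.59 to 2.73%), so a small part of the strong CK2α regions also had no Pol II region nearby.

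**Figure D1:**
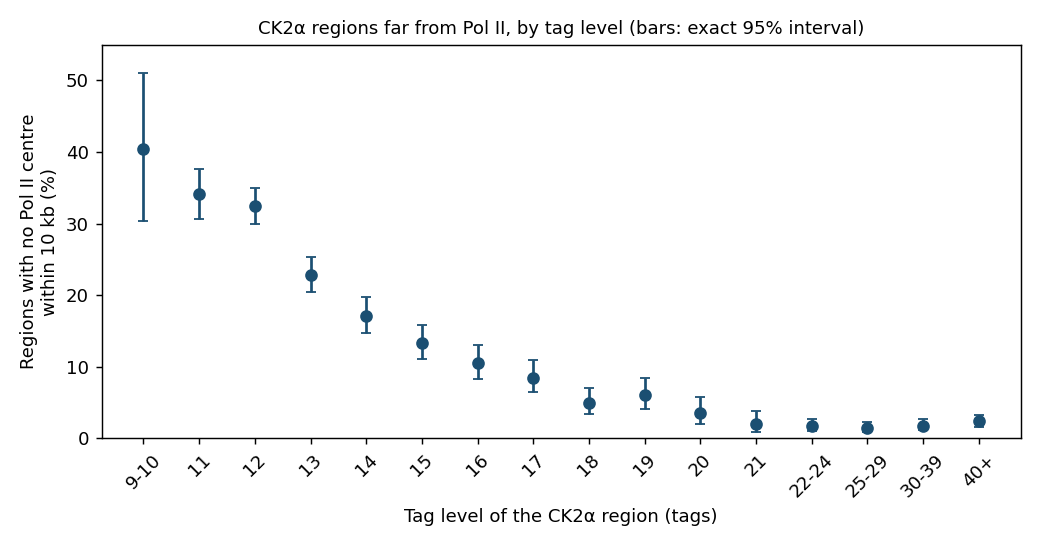
Share of CK2α regions with no Pol II centre within 10 kb (vertical axis, %) at each tag level (horizontal axis, tags), with exact 95% binomial intervals. The share was 32.4% at 12 tags and 2.39% at 40 tags or more, and the lowest levels, 9 to 10 tags, reached 40.4%.

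Pol II lists show a fall of the same kind when they are compared with each other. Of the DMSO Pol II regions, 37.8% of those with 12 tags (35.0 to 40.8%) had no TBBz Pol II centre within 10 kb. Of those with 30 tags or more it was 0.337% (0.243 to 0.455%). In the other direction, 61.7% of the TBBz Pol II regions with 12 tags (57.8 to 65.5%) and 2.54% of those with 30 tags or more (2.31 to 2.79%) had no DMSO centre within 10 kb. Against a single Pol II list, CK2α regions with 30 tags or more were far in 2.49% of cases for DMSO (1.92 to 3.16%) and in 3.02% for TBBz (2.40 to 3.75%). At this cut the CK2α share was above that of the DMSO Pol II regions and close to that of the TBBz Pol II regions. The cut takes in unlike parts of the lists: 2613 of 13382 CK2α, 12459 of 21819 DMSO and 16711 of 24782 TBBz regions. Median tag levels were 18, 37 and 80, and the caller's thresholds were 12, 11 and 13 tags. A tag level thus does not carry the same strength across the lists. The libraries also differ in depth (19021404 tags for CK2α, 15466579 for DMSO and 22345614 for TBBz). The Pol II lists differ in treatment as well, DMSO or TBBz, so effects of depth and treatment on these shares cannot be told apart. Over all tag levels 10.0% of the DMSO Pol II regions stood more than 10 kb from TBBz Pol II and 15.4% of the TBBz regions (14.9 to 15.8%) from DMSO Pol II. For CK2α regions against a single list it was 14.8% from DMSO and 15.3% from TBBz Pol II.

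The distance of 10 kb does not mark a natural boundary. Within 1 kb of a Pol II centre lay 10930 CK2α regions, and their number per kb of distance dropped to 258 between 1 and 2 kb and 77 between 2 and 3 kb. It was 70.5 per kb between 3 and 5 kb and 79.6 between 5 and 10 kb, then 47.5 between 10 and 20 kb and 18.9 between 20 and 50 kb. Around the rule itself, 85 regions lay between 8 and 9 kb, 73 between 9 and 10 kb, 70 between 10 and 11 kb and 61 between 11 and 12 kb. The decline is thus steep within the first 2 kb and gradual around 10 kb. The caller removed candidates with less than 4 times the signal of the 10 kb around them, and how far this shaped the counts close to Pol II was not tested.

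**Figure D2:**
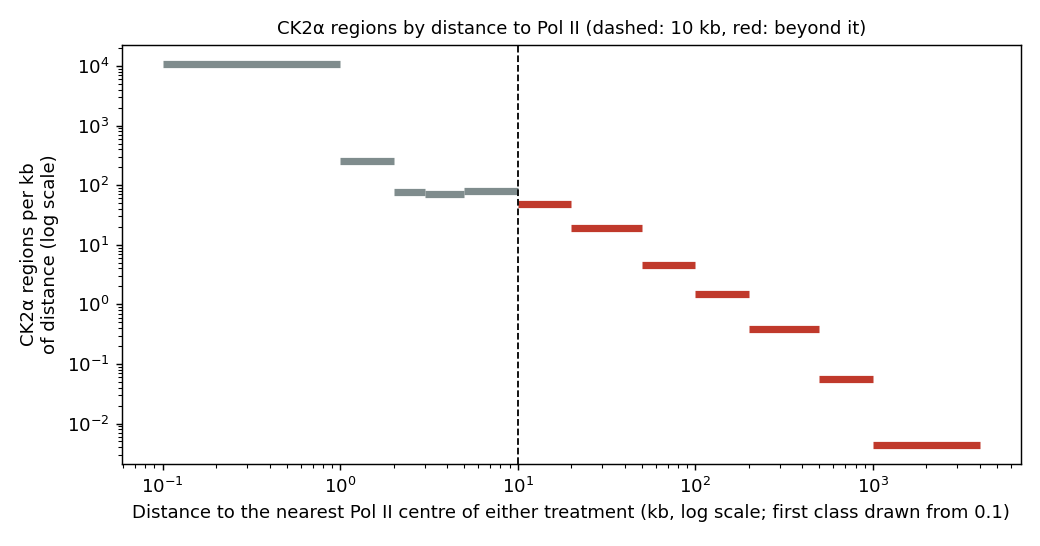
CK2α regions per kb of distance (vertical axis, log scale) by distance to the nearest Pol II centre of either treatment (horizontal axis, kb, log scale); each bar is a distance class, red beyond 10 kb. The number falls from 258 per kb at 1 to 2 kb to 79.6 per kb at 5 to 10 kb and 47.5 per kb at 10 to 20 kb.

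The members nearest to the threshold were chr19:51297700-51297900 at 10006 bp and chr6:153333726-153333926, also at 10006 bp, followed by chr12:120685096-120685296 at 10013 bp, chr3:11695300-11695500 at 10019 bp and chr3:183405495-183405695 at 10037 bp. The first of these had at least 128 tags, and the others had between 11 and 15. Just outside stood chr20:433023-433223 at 9983 bp, chr2:99215070-99215270 at 9957 bp, chr17:71211689-71211889 at 9951 bp, chr14:89642472-89642672 at 9914 bp and chr7:6566018-6566218 at 9893 bp, with 11 to 16 tags.

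Beyond the rule's distance the members were spread widely. Their median distance to the nearest Pol II centre was 32.3 kb (quartiles 17.6 and 74.1 kb). More than 100 kb away were 304 members, 19.3% of them (17.3 to 21.3%), and more than 1 Mb away were 13. Members past 100 kb had the same median tag level, 13, as all members. Pol II was also somewhat sparser farther out: in the ring from 10 to 100 kb around the centre 22.4% of the members had no DMSO Pol II region, against 14.6% of the CK2α regions near Pol II. From 10 kb to 1 Mb the medians were 17 and 23 DMSO Pol II regions. Both sets were defined by Pol II within 10 kb, and how far the sparser surroundings follow from that choice was not tested.

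The strongest members were among the strongest CK2α regions of the whole list. The first 10 in list order opened with chr11:66189155-66189355, at least 137 tags, place 7 of the list, 17018 bp from the nearest DMSO Pol II centre and 16983 bp from the nearest TBBz centre. It was followed by chr19:51297700-51297900 at place 31 with at least 128 tags, chr4:1404302-1404502 at place 38 and chr19:57149417-57149617 at place 39, both with at least 125. The list went on with chr9:128845059-128845259 (at least 124 tags), chr9:126872684-126872884 (at least 120), chr10:124671479-124671679 and chr19:4769601-4769801 (at least 118 each). After a gap came chr8:142726210-142726410 at place 138 with at least 95 tags and chr11:70496507-70496707 at place 154 with at least 91. All 10 therefore had more than 90 tags, while the median far region had 13. The caller counted at most 1 tag per base position, which limits how high these numbers can go.

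These leading regions differed in how isolated they were. The nearest Pol II centres of chr9:128845059-128845259 lay 178 kb away in both treatments, and those of chr8:142726210-142726410 lay 324 kb away. Both chromosome 9 regions had weak Pol II as their nearest: the DMSO and TBBz regions of chr9:128845059-128845259 had 17 and 24 tags, and those of chr9:126872684-126872884 had 29 and 25. At chr19:51297700-51297900 the nearest Pol II regions were strong, with at least 187 tags in DMSO and at least 304 in TBBz. At chr4:1404302-1404502 the treatments differed, with a DMSO centre of 14 tags at 13884 bp and no TBBz centre closer than 63297 bp.

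Far regions were unevenly placed within the leading part of the list. Among the first 60 CK2α regions 8 were far (13.3%, 5.94 to 24.6%), and among places 61 to 1338 it was 25 of 1278 (1.96%, 1.27 to 2.87%). The intervals do not overlap, but the limit at place 60 was chosen after the values were seen.

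Strong members mostly stood alone. Of the 55 with 30 tags or more, 1 had another CK2α region within 10 kb (1.82%, 0.0460 to 9.72%), against 838 of 2558 equally strong regions near Pol II (32.8%, 30.9 to 34.6%). Within 50 kb the shares were 30.9% (19.1 to 44.8%) and 75.9% (74.2 to 77.5%). Their median distance from Pol II was 67.0 kb (order-statistic 95% interval 42.8 to 104 kb), and for members at 12 tags it was 31.4 kb (27.6 to 34.0 kb). The weakest members, at 9 to 11 tags, had a median of 38.99 kb (34.4 to 47.1 kb), so distance did not rise steadily with strength. The 55 were spread over 20 chromosomes, with 6 on chromosome 1 and 5 each on chromosomes 3 and 20. The absence of CK2α neighbours is partly tied to the rule, since most CK2α regions lie at Pol II.

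**Figure D3:**
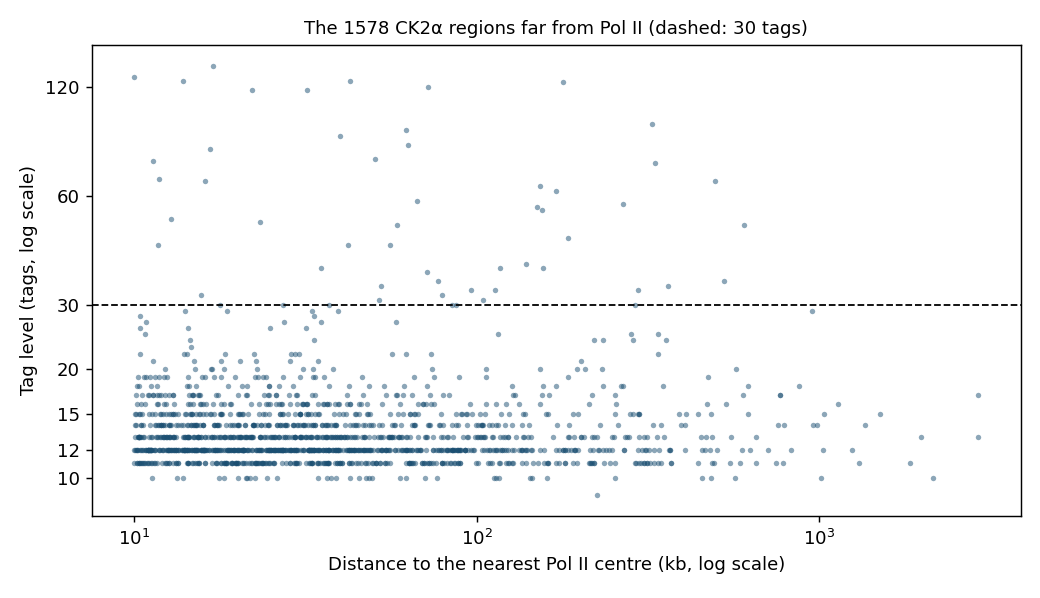
Tag level (vertical axis, log scale) of the 1578 far CK2α regions against distance to the nearest Pol II centre (horizontal axis, kb, log scale); each point is a region. Most points lie at 12 to 15 tags, and the 55 at or above the dashed line of 30 tags lie between 10.0 and 604 kb from Pol II.

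Weaker members, under 30 tags, had another CK2α region within 10 kb in 142 of 1523 cases (9.32%, 7.91 to 10.9%), against 36.5% (35.6 to 37.5%) of equally weak regions near Pol II. Within 50 kb it was 55.2% (52.7 to 57.7%) and 68.8% (67.8 to 69.7%). Over all members, another CK2α region lay within 10 kb of 143, 9.06% (7.69 to 10.6%), against 35.7% (34.9 to 36.6%) of the CK2α regions near Pol II. The median distance to the next CK2α region was 43.1 kb for members and 21.1 kb for the others. The nearest other CK2α region was closer than any Pol II region for 634 members (40.2%). When members were linked across gaps of up to 50 kb, 1297 stayed without another member, 122 pairs formed, and 12 groups had 3 or 4 members.

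The largest group held 4 members at chr4:148886150-148942401, with 13, 11, 11 and 12 tags and DMSO Pol II between 36584 and 92635 bp away. The nearest TBBz Pol II was farther from each of them, between 135249 and 182454 bp. Among the groups of 3, the one with the strongest member was chrX:43609458-43665544, with 22, 12 and 12 tags. The groups that came next were chr3:120767704-120831203 with 15, 17 and 16 tags, chr14:81935892-81962004 with 15, 12 and 17, and chr2:26411559-26445857 with 16, 12 and 13. No CK2α region near Pol II lay inside any of these 5 spans.

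A few members came as close pairs, but close neighbours were rarer among members than among the CK2α regions near Pol II. Another CK2α region lay within 1 kb of 40 members, 2.53% (1.82 to 3.44%), against 16.95% (16.3 to 17.6%) of the CK2α regions near Pol II. This difference too is partly tied to the rule. In 19 pairs the centres of neighbouring members were at most 1 kb apart, with a median spacing of 656 bp (511 to 985 bp); the caller kept peaks at least 500 bp apart. The members of a pair differed by at most 4 tags, and by none at chr1:67866436-67866636 and chr1:67867195-67867395 with 22 tags each, 759 bp apart. Tag levels of all members lie close together (quartiles 12 and 15), and whether paired members are more alike than others was not tested. Another pair, chr6:47598401-47598601 with 20 tags and chr6:47599044-47599244 with 16, lay 643 bp apart and 152702 bp from Pol II. Across all CK2α regions, nearest neighbours numbered 738 per kb between 1 and 2 kb, 88.0 per kb between 2 and 5 kb and 263 per kb between 5 and 10 kb. By 1 kb steps the number was 83 between 4 and 5 kb and 254 between 5 and 6 kb, a rise at the half-width of 5 kb of the caller's local comparison; its cause was not tested.

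The members farthest from Pol II lay in very wide Pol II-free stretches. The farthest were chr4:31413517-31413717 and chr4:31417313-31417513, with 13 and 17 tags, 3796 bp from each other and 2922673 and 2918877 bp from the nearest Pol II centre. Next came chr4:92761571-92761771 with 10 tags at 2158984 bp, chr14:85110003-85110203 with 13 tags at 1992723 bp and chr10:67650861-67651061 with 11 tags at 1849669 bp. On chromosome 14 a second far region, chr14:85589189-85589389 with 15 tags, stood 479186 bp from the first. Of the 13 members beyond 1 Mb, 8 had a CK2α region closer than any Pol II region, and 4 had another member within 200 kb.

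For most members the nearest Pol II site was the same with and without the inhibitor. For 1111 members (70.4%, 68.1 to 72.6%) the nearest DMSO and TBBz centres were within 1 kb of each other and were taken as the same site. For the remaining 467 the TBBz site was nearer in 310 cases (66.4%, 61.9 to 70.7%) and the DMSO site in 157. These shares were not counted for the CK2α regions near Pol II, so they are not shown to be particular to the members. The TBBz list is the longer one, with 24782 regions against 21819, and comes from the deeper library. In the group of 4 members on chromosome 4, by contrast, the DMSO site was the nearer one for each member. At chr14:85110003-85110203 the nearest DMSO centre lay at 3081464 bp and the nearest TBBz centre at 1992723 bp.

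**Figure D4:**
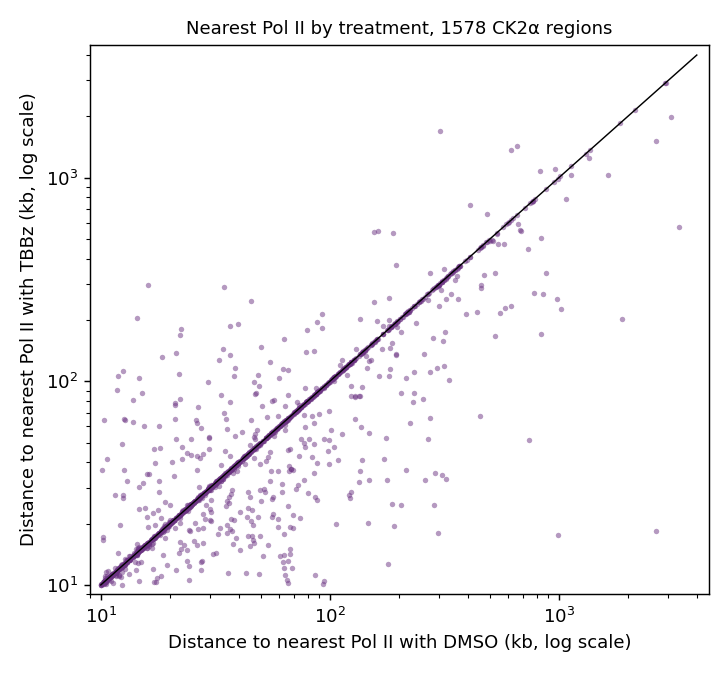
Distance of each of the 1578 far CK2α regions to the nearest Pol II centre with TBBz (vertical axis, kb, log scale) against that with DMSO (horizontal axis, kb, log scale); the line marks equal distance. The 1111 regions with the same nearest site lie along the line, and of the others 310 lie below it and 157 above.

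CK2α regions whose only nearby Pol II was from 1 treatment were weak as well. A Pol II centre within 10 kb was found with TBBz only for 2.997% of the CK2α regions, with a median of 13 tags (quartiles 12 and 15), the same as for the members. With DMSO only it was found for 3.47%, with a median of 15 tags (quartiles 13 and 20). The 10938 regions with Pol II of both treatments had a median of 20 tags. The Pol II sites that were nearest to the members were not weak themselves: the median was 47 tags for 1387 DMSO sites, against 37 in the whole DMSO list. A CK2α centre lay within 1 kb of 55.9% of these DMSO sites (53.3 to 58.6%), against 47.5% of the list.

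Far regions were found on each of the 24 chromosomes. Chromosome 1 had the most, 192, followed by chromosome 3 with 144 and chromosome 7 with 99, while chromosome Y had 1. As a share of the CK2α regions of the chromosome they were most frequent on chromosome 3, at 16.6% (14.2 to 19.2%), and on chromosome 18, at 16.5% (11.8 to 22.1%). The lowest shares were 5.40% (3.95 to 7.18%) on chromosome 19 and 1.72% (0.0436 to 9.24%) on chromosome Y. Densities are per Mb of the span from the first to the last region of any list, region-free stretches included. Chromosome 19 had the most CK2α regions per Mb, 13.9. Its 0.748 far regions per Mb were close to the 0.770 of chromosome 1 and below the 0.923 of chromosome 20. On chromosome 19 the members' median distance to Pol II was 20.9 kb, and on chromosome 18 it was 54.1 kb. Across the 24 chromosomes the share far from Pol II and CK2α regions per Mb had a Spearman's rho of -0.08 and a Pearson's r of -0.21. When chromosomes 19 and Y were left out together, Spearman's rho was -0.12 and Pearson's r was -0.26. Chromosome Y, with only 58 CK2α regions, was lowest both in density (1.03 per Mb) and in share, which pulls against a negative relation. How much of its 56.3 Mb span could hold a called region was not looked up. The relation with only chromosome Y left out was not computed. Chromosomes share 1 library and are not replicates.

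**Figure D5:**
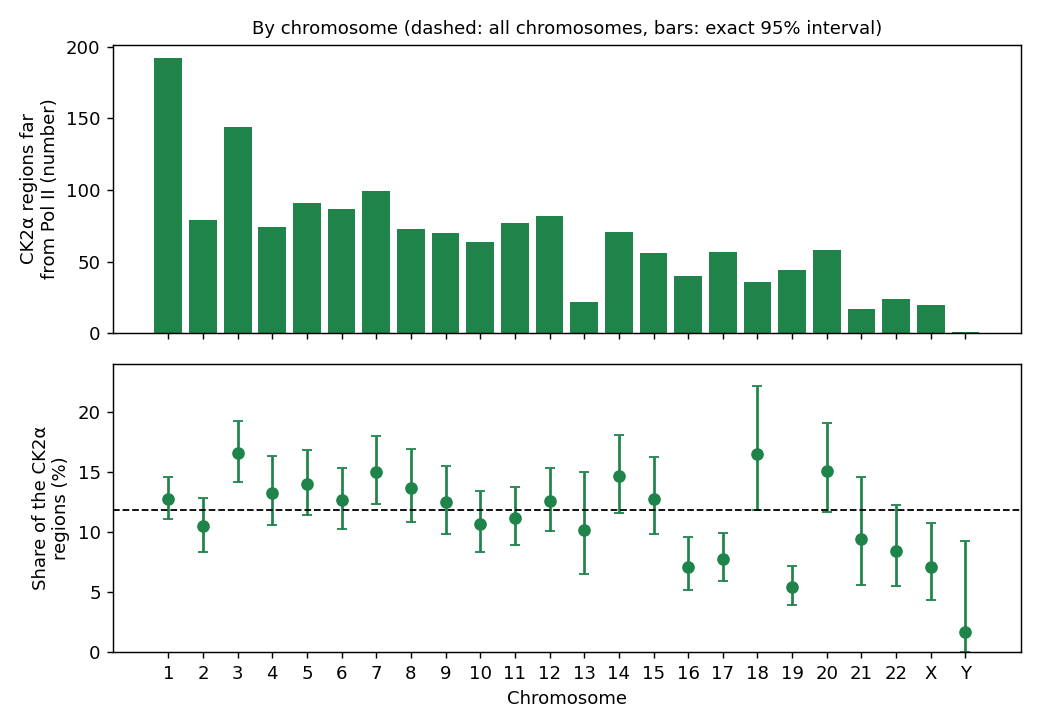
Number of far CK2α regions (upper panel) and their share of the CK2α regions (lower panel, %, with exact 95% binomial intervals) on each chromosome; the dashed line is the share over all chromosomes, 11.8%. Chromosome 3 stands at 16.6% and chromosome 19 at 5.40%.

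There were 153 stretches of 2 Mb or more without a region of any list, 526 Mb in all. Which of them are centromeres or assembly gaps was not looked up. The stretches had similar shares of members and of other CK2α regions beside them. Within 1 Mb of such a stretch were 174 members, 11.03% (9.52 to 12.7%), and 10.4% (9.86 to 10.97%) of the CK2α regions near Pol II. For the members with 30 tags or more it was 5 of 55. Of the members, 26 were themselves the edge of such a stretch, so the stretches are not independent of the members.

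No control library is named in the caller's command, the regions held 1.65% of the CK2α library's tags, and a region at the threshold holds 12 tags where 1.90 were expected by the caller. Background cannot be told apart from weak CK2α binding at such regions, and binding in a few cells cannot be told apart from weak binding in all. With no control library named, signal not due to CK2α cannot be told apart from binding at the strong members either. A missing Pol II region does not show missing Pol II, since candidates with much signal around them were removed from the lists.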

How the data were processed

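ChIP-seq regions of 3 libraries of LNCaP cells (passages 40 to 45) were used as deposited. The submitters' processing notes name Bowtie, HOMER and hg19, without versions. Peaks were called by the authors in each library by itself, per the file headers, with HOMER (factor style, peak size 200 bp, minimum distance 500 bp, fragment length 150 bp, false discovery rate 0.001), and removed candidates under 4-fold over the surrounding 10 kb, 42856 of 56238 for CK2α. The deposited score is 1 for every region and ranks nothing, so the order of the list was used. The other deposited columns are the start and end. Starts were raised by 1.

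Groups follow the antibody and treatment labels; the source label of both Pol II libraries mentions TBBz. Distances are between centres. Shares have exact (Clopper-Pearson) 95% intervals, medians order-statistic ones. Tag levels were counted in runs of the list and taken as exact from the threshold up to the first run with fewer than 20 regions. Named regions are the first 10 members, the 5 farthest, the 5 on either side of 10 kb and the 5 largest groups, ties going to the highest tag level; other regions, and the classes by tag level, were chosen after their values were seen. The members and results were chosen with earlier results of these data known. The distance rule was tested on simulated regions at known offsets from Pol II. The simulation for tag levels used the inferred levels and the assumed order of the list. It checks the counting of runs and cannot show that the reading is right. Scripts ran under Python 3.11.15 with SciPy 1.17.1, NumPy 2.4.6, Matplotlib 3.10.9 and pandas 2.3.3.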

Additional observations from a re-analysis of the deposited data

How the results depend on the processing

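The number of far regions depended on the distance and on the lists by construction, while their late place in the CK2α list held when the distance was changed. The share of CK2α regions far from Pol II was 16.4% beyond 2 kb, 14.8% beyond 5 kb, 8.24% beyond 20 kb and 4.01% beyond 50 kb. It was 14.8% with the DMSO list only, 15.3% with the TBBz list only, 31.1% with the first 50% of each Pol II list and 2.56% in the first 50% of the CK2α list. With alternatives chosen after the data were seen it was 2.01% without CK2α regions under 20 tags and 10.3% without those under the tag threshold. The median place of the members was 81.1% of the list, 69.8% within the first 50% of the list, and 72.04% by the number in the region name. The share with a CK2α region within 10 kb was 18.1% beyond 5 kb, 5.97% beyond 50 kb and 4.09% in the first 50% of the list; a neighbour within 5 kb gave 4.56% and within 50 kb 54.4%. The share with another member within 50 kb was 15.2% beyond 20 kb, 12.1% beyond 50 kb and 4.68% in the first 50% of the list. Beside region-free stretches it was 13.2% beyond 50 kb and 8.77% in the first 50% of the list. On chromosome 3 the share far was 19.5% beyond 5 kb, 12.1% beyond 20 kb, 6.22% beyond 50 kb and 4.14% in the first 50% of the list. Leaving out chromosome Y moved no value beyond its interval. Alternatives that need a genome sequence or gene annotation of hg19 were not run. No paired analysis was possible because there is a single library per group. Of the members, 741 hold 12 tags or fewer; what depth limits there was not tested.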

Other observations

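In windows of 10 Mb, the most members were found on chromosome 3, with 17 of 87 CK2α regions between 120 and 130 Mb and 17 of 64 (26.6%) between 180 and 190 Mb. On chromosome 1 the window from 50 to 60 Mb held 16 members among 66 CK2α regions (24.2%). The windows were picked with their values in view.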
